A study of Rattus norvegicus with 24 samples.

Results

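Differentiation in the absence of any drug or vehicle was examined in 8 of the 24 libraries of a study on primary rat oligodendrocyte precursor cells (OPCs) and oligodendrocytes (OLs). These are the 4 libraries labelled as untreated OPCs and the 4 labelled as untreated OLs, and they were chosen by their labels alone. The OPCs were purified by shaking from mixed glial cultures of newborn Sprague Dawley rat cortices and kept for 24 hours in a serum-free proliferation medium with fibroblast growth factor, platelet-derived growth factor (PDGF) and neurotrophin 3. The OLs had the same 24 hours of proliferation and then 72 hours in a differentiation medium, for which none of these factors is listed and which was supplied with thyroxine, insulin, transferrin and putrescine. The other 16 libraries came from cells given DMSO, the vehicle, or dolutegravir, and of these only the 8 DMSO libraries were set beside the untreated ones. According to the study, replicates were cultures of independent litters. Libraries with the same replicate number carry the same code in their library names at both stages and with every treatment, and they were taken here as cultures of the same litter, which the study does not state. No axons were added for the OLs to wrap. The stage, the change of medium and the added days in culture cannot be told apart.

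OPCs divide in response to PDGF, which acts on the receptor encoded by Pdgfra, and they carry the proteoglycan NG2, encoded by Cspg4. When growth factors are withdrawn and thyroid hormone is given, OPCs leave the cell cycle, extend branched processes and switch on the genes of myelin, the membrane stack that insulates axons. Myelin basic protein, encoded by Mbp, compacts the inner faces of that membrane, and the glycoprotein encoded by Mog sits on its outermost surface and appears late.

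Each value below starts from the number of uniquely mapped reads that the study counted on the exons of a gene. Libraries held 13241279 to 18499994 such counts on genes. Levels are given as CPM, the counts scaled to a common library total after TMM scaling, which matches libraries on the bulk of their genes. The stages were compared by edgeR's quasi-likelihood test, and p-values were adjusted by Benjamini-Hochberg across the genes that entered it. A call required an adjusted p under 0.05 together with a log2 fold change over 1 in either direction, that is, over 2-fold. Fold changes are given as log2 values with their standard error, OL over OPC, from 4 libraries a stage. In bulk RNA, fewer cells of a type and less RNA per cell cannot be told apart.

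Most identifiers in the files carry no gene symbol. Symbols were found for 1957 of the 21651 identifiers shared by all 8 files, and 1860 of these come from a study table of genes that were lower in DMSO-treated OLs than in DMSO-treated OPCs. The remaining 97 come from a study table on dolutegravir. Which genes can be named was therefore decided largely by their direction in other libraries of the same litters. Among 1827 tested genes named through the first table, 0 rose and 1343 fell. Among the 95 tested genes named only through the dolutegravir table, 37 rose and 3 fell. Of the 10236 tested genes without a symbol, 1354 rose and 259 fell. The directions of the gene lists that follow are thus no independent evidence. Members with small or opposite changes could seldom be named through the first table, so the sizes and medians of the changes are shaped by the naming too. Levels and spread over litters are measurements of these libraries, for the genes that could be named.

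Replicate 3 stood apart from the other litters at both stages. Its 2 untreated libraries were counted with another annotation than the 32883 genes of the other files, and only 20.88% of the shared genes had the same exonic length in both. In untreated cells, 10.9% of 11956 genes differed by over 2-fold in replicate 3 from the mean of the other replicates, against 4.13% to 4.78% for the other replicates. In addition, 85 genes were at 0 in both libraries of replicate 3 but had at least 10 counts in each of the other 6, and for 55 genes this was reversed. The DMSO libraries of the same litter, counted with the annotation of the other files, showed 1.66% of genes over 2-fold from the other DMSO replicates.

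Principal components of the 500 genes of highest variance were taken to see which difference dominated the libraries. The first component held 57.91% of the variance and set replicate 3 apart, with stage means that differed by 0.318 and overlapping stages (exact permutation test, two-sided p = 0.743). The second held 38.82% and placed all 4 OL libraries above all 4 OPC libraries, with p = 0.0286 in the same exact permutation test, the smallest that 4 against 4 can give. Without replicate 3, the first component held 92.02% of the variance and split the 3 remaining OL libraries from the 3 OPC libraries (exact permutation test, p = 0.1, the smallest possible for 3 against 3). Because of this, counts below are also given without replicate 3 where they changed.

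**Figure D1:**
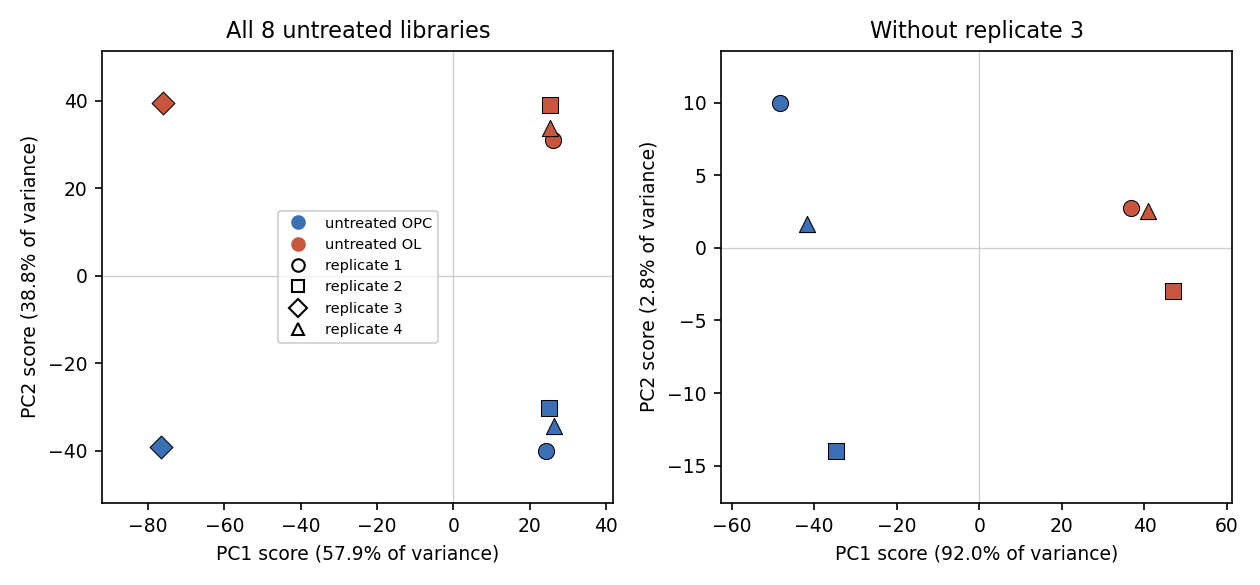
Scores of the untreated libraries on the first 2 principal components of log2 CPM, for all 8 libraries (left) and without replicate 3 (right), with colours for the stage and symbols for the replicate. On the left both libraries of replicate 3 lie near -76 on the first axis while the others lie between 24.3 and 26.5, and on the right the first axis splits OPCs from OLs.

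Differentiation was accompanied by broad change in both directions. Of 12158 genes tested, 2996 were differentially expressed (24.6%), with 1391 higher (11.4%) and 1605 lower (13.2%) in OLs. The very largest changes were more often rises. More than 16-fold changes were found for 111 genes that rose and 81 that fell, and more than 64-fold changes for 15 that rose and 2 that fell. Expression did not overlap between the 4 OPC and the 4 OL libraries for 4766 genes (39.2%), of which 2389 (19.6%) were higher and 2377 (19.6%) lower in OLs. Without replicate 3, 2762 of 12177 genes were called, and 2413 of them were also called with all litters.

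How the calls split between rises and falls depended on the scaling. ERCC RNA, a mixture of synthetic transcripts, had been added to equal amounts of total RNA. It took 2.12%, 1.83%, 1.27% and 2.62% of the counts in OPCs of replicates 1 to 4 and 2.59%, 4.79%, 3.48% and 1.86% in OLs. Its share was higher in OLs in 3 of 4 litters, but the stages overlapped. The difference of 1.22 percentage points, beside an SD of 0.56 in OPCs and 1.26 in OLs, was not significant (exact permutation test, two-sided p = 0.171). With 4 libraries a stage this does not show that the shares were equal. When libraries were scaled to ERCC counts, the median change over all genes, on the log2 scale, moved from -0.102 to -0.995, and 361 genes rose against 3241 that fell, so that rises made up 10% of the calls in place of 46.4%. With library totals alone, rises were 29.2% of 3364 calls and the median was -0.371. Every change below is relative to the bulk of genes, as TMM scaling sets it.

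Markers of the OL lineage moved by stage in every litter. The labels were compared with 6 OPC and 6 oligodendrocyte markers, of which Pdgfra, Cspg4, Mbp and Mog could be named, and all 4 followed the labelled stage. Pdgfra and Cspg4 were named by their lower level in DMSO-treated OLs, so their direction is no independent check. Of 1827 genes named that way 1343 fell. Mbp and Mog were named through the dolutegravir table, and of the 95 tested genes named only through it 37 rose. Mbp (chr18:79326738-79437310 in Rnor_6.0, the build in the submitters' processing notes) was at 297, 353, 140 and 152 CPM in OPCs of replicates 1 to 4 and at 7031, 10186, 9622 and 4055 CPM in OLs. The lowest OL library thus stood far above the highest OPC library, and Mbp rose by 5.03 ± 0.45 on the log2 scale (edgeR, adjusted p = 6.4e-05). Mog rose from 5.11, 4.20, 0.363 and 4.34 CPM to 44.7, 46.9, 31.2 and 34.3 CPM, a log2 change of 3.49 ± 0.61 (edgeR, adjusted p = 0.0022), with its single low OPC value in replicate 3. All OL values of Mog lay above all OPC values.

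Other genes of the differentiating lineage rose as well. Enpp6, an ectoenzyme of choline metabolism that marks newly forming OLs, went from 2.38, 3.48, 1.93 and 1.26 CPM to 86.3, 108, 114 and 52.0 CPM, a log2 change of 5.31 ± 0.39 (edgeR, adjusted p = 2.9e-05). Tppp, a tubulin polymerizing protein of OLs, had 1.68 to 3.20 CPM in OPCs and 41.3 to 76.1 CPM in OLs, with a log2 change of 4.61 ± 0.31. Adamts4, an aggrecan-cleaving protease made by mature OLs, had 4.34 to 7.38 CPM in OPCs and 74.0 to 213 CPM in OLs, a change of 4.72 ± 0.37. In all 3 genes the stages were well separated and replicate 4 had the lowest OL value, as it had for Mbp. Cnksr3, a scaffold protein of signalling, rose by 3.34 ± 0.32. Gjc3, a gap junction protein of myelinating glia, rose by 4.04 ± 0.85, but its OL values ran from 11.9 CPM in replicate 4 to 117 CPM in replicate 3, the widest range among these markers. Its exonic length was 777 bases in the common annotation and 7304 in that of replicate 3, and whether this gave the range was not tested.

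The lists of these markers could be read only in part. Of 18 myelin proteins 3 could be named and all 3 rose (median log2 fold change 4.61, against -0.102 over all genes tested). Of all genes tested 11.4% were higher. Of the 95 tested genes named only through the dolutegravir table, as these 3 were, 37 rose. Among 23 mature OL markers, 4 were measured, and 3 rose and 1 fell (median 3.76). The one that fell, Anln, also encodes anillin, a protein of the cleavage furrow of dividing cells, and changed by -3.76 ± 0.49. Of 15 markers of committed precursors and newly formed OLs, 3 were measured, and Enpp6 and Cnksr3 rose while Epb41l3, a membrane skeleton protein, fell by 2.54 ± 0.33 on the log2 scale. None of 18 genes of galactolipid and sphingolipid synthesis and none of 20 of cholesterol synthesis could be named, so these lipid pathways were not analysed here.

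The genes of highest level per exonic length were mostly the same at both stages. Mitochondrially encoded transcripts were prominent at both stages, with Mt-co3 and Mt-nd1 among the 10 genes of highest CPM per kilobase in OPCs and in OLs. Of 23 mitochondrially encoded genes tested, 0 rose and 1 fell. Among the genes in the OL top 10, 2 had been called higher, and neither has a symbol in the tables. These were ENSRNOG00000017496 (chr10:88490798-88497356), with a mean of 386 ± 92.0 CPM in OPCs and 7071 ± 1993 CPM in OLs (SD, n = 4), and ENSRNOG00000018454 (chr1:80612895-80617057), with 872 ± 612 CPM and 10106 ± 5076 CPM. Their log2 changes were 4.20 ± 0.31 and 3.53 ± 0.63. In the OPC top 10, ENSRNOG00000047931, also without a symbol, was called lower, with a log2 change of -1.11 ± 0.22. The 100 genes of highest CPM held 20% of the CPM in OPCs and 23.8% in OLs.

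OPC markers fell but remained well expressed. Pdgfra (chr14:35527927-35581031) had 774, 896, 684 and 402 CPM in OPCs of replicates 1 to 4 and 322, 167, 157 and 304 CPM in OLs, a log2 change of -1.54 ± 0.32 (edgeR, adjusted p = 0.0055). No OL value reached the lowest OPC value, although replicate 4 came near with 402 and 304 CPM. Cspg4 fell from 358, 315, 204 and 229 CPM to 66.5, 32.5, 52.0 and 52.6 CPM, a change of -2.44 ± 0.27 (edgeR, adjusted p = 0.00019). Xylt1, which starts the sugar chains of proteoglycans, changed by -1.60 ± 0.37, and its OPC value in replicate 3, 501 CPM, stood above the 183 to 233 CPM of the others. Together, 3 of 3 measured members of 16 OPC markers fell, with a median of -1.60, against 13.2% lower among all genes tested. All 3 were named by their lower level in DMSO-treated OLs, and of 1827 genes named that way 1343 fell. Of the 20 receptors for factors in the media, Pdgfra and Igf1r, the receptor for insulin-like growth factor 1, could be named, and Igf1r changed by -1.19 ± 0.24.

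**Figure D2:**
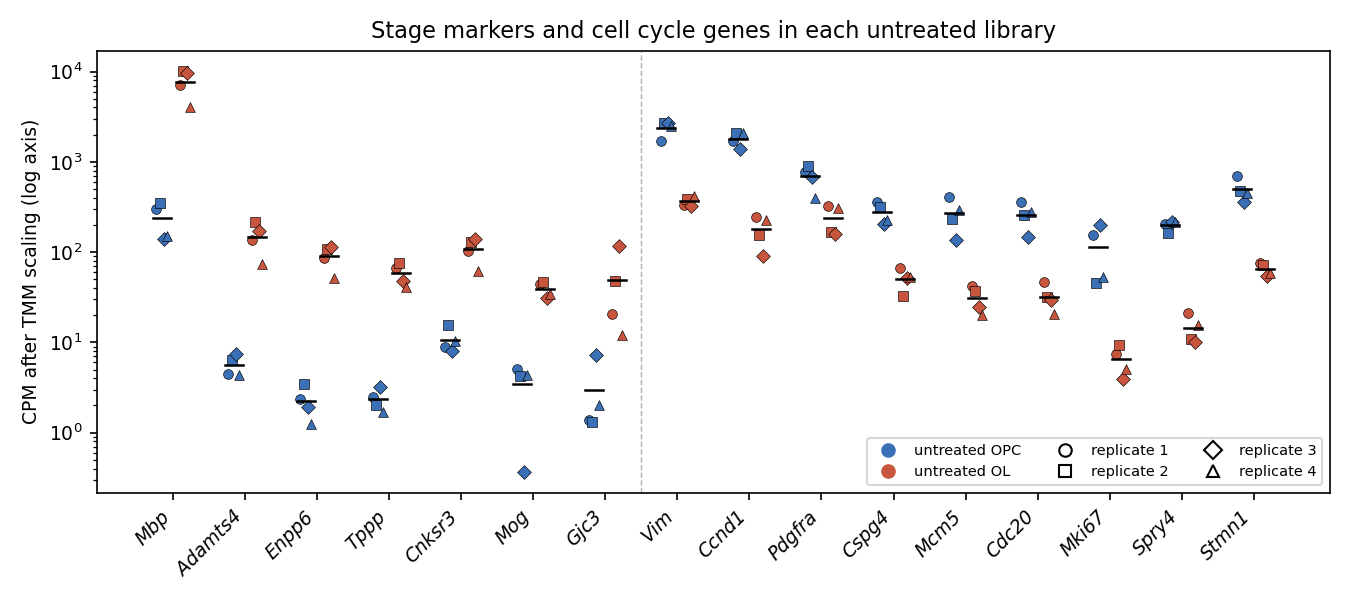
CPM after TMM scaling (log axis) of 16 genes in each untreated OPC (blue) and untreated OL (red) library, with a symbol for each replicate and a black line for the mean of 4 libraries. Genes left of the dashed line were higher in OLs, such as Mbp with 140 to 353 CPM in OPCs and 4055 to 10186 CPM in OLs, and genes to its right were lower, such as Vim with 1694 to 2691 CPM in OPCs and 327 to 422 CPM in OLs.

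The largest rises among named genes included genes that are not classical parts of myelin. They were taken by a rule, the 10 largest changes each way among called genes that had a symbol and an average log2 CPM above 0. The rule also required the same direction in all 4 litters and a call without replicate 3. A transcript known only by its clone name, AABR07019383.1, changed most, by 7.81 ± 0.71, from 0.0594 to 0.328 CPM in OPCs to 14.5 to 59.8 CPM in OLs. Pnlip, which encodes pancreatic lipase, went from 3.09 to 9.32 CPM to 317 to 493 CPM, a change of 6.23 ± 0.38 (edgeR, adjusted p = 1.6e-05). Kif19, a kinesin motor that shortens microtubules, went from 1.49 to 2.94 CPM to 84.9 to 142 CPM, a change of 5.79 ± 0.31. OPC and OL values of these 3 genes were far apart in every litter. Acot11, an acyl-CoA thioesterase, changed by 5.51 ± 0.45, Xirp1, an actin-binding repeat protein, by 4.97 ± 0.42, and Tmprss5, a membrane serine protease, by 4.66 ± 0.70. Enpp6, Mbp and Adamts4 were also among the 10.

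Tmem151a, a membrane protein, completed the list with a change of 5.35 ± 1.61, and its values were highest in replicate 3 at both stages. Its OL values were 4.44, 7.46, 130.0 and 2.91 CPM and its OPC values 0.238, 0, 2.96 and 0.280 CPM, so that the stages overlapped. Without replicate 3 its change was 4.76, and its call there was a condition of the rule. Leaving out any one of the OPC libraries of replicates 1, 2 and 4 or the OL library of replicate 3 ended the call, and the change ranged from 2.43 to 7.65 over such exclusions.

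The largest falls joined genes of several roles. Serpinb7, a protease inhibitor, changed by -6.38 ± 0.67, Cd93, a cell surface glycoprotein, by -5.78 ± 0.78, and Il1r1, the receptor for interleukin 1, by -5.68 ± 0.64. S100a10, a partner of annexin A2, went from 100, 237, 297 and 145 CPM to 4.73, 4.43, 3.59 and 5.30 CPM, a change of -5.43 ± 0.39 (edgeR, adjusted p = 2.4e-05). Fbn2, a fibrillin of extracellular microfibrils, went from 56.3 to 250 CPM to 2.17 to 4.31 CPM, a change of -5.45 ± 0.49. The OL values of both lay in a narrow band, while the OPC values were spread over litters. Acta2 changed by -5.83 ± 0.80, Nrgn by -5.55 ± 0.68, Cbln4 by -5.50 ± 0.76, Sgo2, which protects centromeric cohesion, by -5.48 ± 0.81, and Rasgrf1, an activator of Ras, by -5.44 ± 0.70. Of all shared genes, only Galnt9, an enzyme of O-glycosylation, was at 0 counts in all 4 OL libraries with at least 10 counts in each OPC library. Its OPC counts were 17, 15, 12 and 41, so it was at least 25.5-fold lower in OLs when 3 counts over the group are taken as the floor.

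Genes of DNA replication and mitosis fell together with differentiation. Of 31 replication genes 29 were measured, and 28 of them fell (median log2 fold change -2.68), against 13.2% lower among all genes tested. The measured replication and mitosis genes were all named by their lower level in DMSO-treated OLs, and of 1827 genes named that way 1343 fell. Of 26 mitosis genes 25 were measured and all 25 fell (median -3.82). Without replicate 3, 29 replication genes and 25 mitosis genes were called. The mitosis median was lower than the replication median within each litter, with -3.48, -3.30, -4.41 and -3.60 against -2.84, -2.57, -2.64 and -2.38 in replicates 1 to 4.

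Since these genes moved together, the RefSeq promoters of the assembly GRCr8 were searched in the 250 bases before the annotated gene start, on both strands, for letters known from cell cycle promoters. The letters searched were the CHR element (TTTGAA or TTCGAA), the CCAAT box (CCAAT) and E2F sites (TTTCCCGC, TTTGGCGC, TTTCGCGC or TTTGCCGC). A CCAAT box can share at most 1 base with either other element. Promoters were matched by symbol for 21 of the 25 measured mitosis genes and 24 of the 29 replication genes. CHR letters stood in 9 mitosis promoters (42.9%) and 5 replication promoters (20.8%), against 17.3% of all 27456 promoters. E2F letters stood in 1 mitosis promoter (4.76%) and 8 replication promoters (33.3%), against 1.81% of all. CCAAT boxes stood in 71.4% and 58.3%, against 34.3% of all. These are matches of letters and do not show binding.

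A pair of mitosis promoters and a pair of replication promoters are shown as examples that hold the letters searched, from genes that fell at each step of the cycle. They lie at chr2:33655226-33655475 on the minus strand for Ccnb1, chr5:137255800-137256049 on the minus strand for Cdc20, chr13:42404353-42404602 on the minus strand for Mcm6 and chr19:13488563-13488812 on the plus strand for Mcm5, all in GRCr8. Sequences read 5′ to 3′ on the strand of the gene and end at the base before its start. Capitals mark CCAAT boxes and CHR letters in Ccnb1 and Cdc20, and E2F letters, read on either strand and overlapping one another in places, in Mcm6 and Mcm5.
Ccnb1: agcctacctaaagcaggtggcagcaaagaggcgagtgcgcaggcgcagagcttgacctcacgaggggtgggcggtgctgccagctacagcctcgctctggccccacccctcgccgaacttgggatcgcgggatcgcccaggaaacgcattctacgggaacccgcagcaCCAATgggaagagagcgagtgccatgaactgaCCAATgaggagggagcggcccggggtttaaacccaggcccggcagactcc
Cdc20: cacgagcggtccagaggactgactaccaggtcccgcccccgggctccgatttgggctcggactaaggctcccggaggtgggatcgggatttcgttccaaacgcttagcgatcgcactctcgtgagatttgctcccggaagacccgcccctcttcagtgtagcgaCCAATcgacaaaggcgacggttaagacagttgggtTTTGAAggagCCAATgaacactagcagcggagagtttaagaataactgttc
Mcm6: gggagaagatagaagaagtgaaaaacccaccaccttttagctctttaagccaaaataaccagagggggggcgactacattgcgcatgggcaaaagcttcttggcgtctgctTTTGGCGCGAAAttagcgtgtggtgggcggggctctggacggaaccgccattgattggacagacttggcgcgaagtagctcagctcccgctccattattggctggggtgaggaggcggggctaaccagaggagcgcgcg
Mcm5: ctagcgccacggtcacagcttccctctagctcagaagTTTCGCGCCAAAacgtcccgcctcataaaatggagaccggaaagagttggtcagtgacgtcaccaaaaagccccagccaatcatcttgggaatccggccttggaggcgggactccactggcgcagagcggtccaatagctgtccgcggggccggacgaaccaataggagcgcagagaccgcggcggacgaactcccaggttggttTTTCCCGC

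Ccnb1, the cyclin B1 that drives entry into mitosis, has 2 CCAAT boxes here, and it had 155, 105, 144 and 89.9 CPM in OPCs and 11.1, 10.5, 7.39 and 5.47 CPM in OLs. Its log2 change was -3.84 ± 0.30 (edgeR, adjusted p = 3.5e-05). Cdc20, which activates the anaphase-promoting complex, has CHR letters between its CCAAT boxes and changed by -3.02 ± 0.34, from 146 to 362 CPM to 20.8 to 46.5 CPM. The stages were apart by several-fold in every litter for both genes. Ttk, a kinase of the spindle checkpoint, changed most in the list with -4.59 ± 0.43, and Aurka, a spindle pole kinase, changed least with -2.48 ± 0.26.

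Mki67, the marker of cycling cells, and Top2a, a topoisomerase that untangles chromosomes, showed the litters apart. Mki67 had 155, 45.4, 199 and 53.3 CPM in OPCs and 7.49, 9.37, 3.94 and 5.07 CPM in OLs, and Top2a had 282, 127, 351 and 141 CPM in OPCs and 19.0, 22.1, 8.58 and 8.73 CPM in OLs. In both genes the OPC values of replicates 1 and 3 were the highest. Their log2 changes were -4.13 ± 0.55 and -3.95 ± 0.47. Cdk1, the kinase of mitotic entry, had a tighter spread and changed by -3.82 ± 0.30.

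Subunits of the replicative helicase fell in a range of sizes. Mcm6 had 415, 251, 181 and 284 CPM in OPCs and 46.0, 41.4, 30.3 and 31.0 CPM in OLs, a change of -2.93 ± 0.28 (edgeR, adjusted p = 9.0e-05). Mcm5 changed by -3.12 ± 0.38. Mcm2 and Mcm7 of the same ring changed by -1.86 ± 0.29 and -1.46 ± 0.26, and kept 52.0 to 71.9 CPM and 86.3 to 111 CPM in OLs. Rrm2, the inducible subunit of ribonucleotide reductase, changed by -4.26 ± 0.34, Gins1 of the helicase complex by -4.06 ± 0.29, and Pcna, the sliding clamp of the polymerase, by -1.75 ± 0.19. Thus the clamp and some helicase subunits fell less than the enzyme of nucleotide supply, and no difference between genes was tested.

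Values of replicate 3 set the result of 2 replication genes. Gins4 had 54.1 CPM in the OL library of replicate 3 and 6.87 to 8.29 CPM in the other OL libraries, and it was not called, with -1.05 ± 0.66 (edgeR, adjusted p = 0.24). Without replicate 3 its change was -2.12 and it was called, as it was without this OL library alone and in the fit with the litter as a block. Cdc45 had 0.665 CPM in the OPC library of replicate 3 and 42.8 to 64.5 CPM in the others. Its call, with -2.95 ± 0.99 (edgeR, adjusted p = 0.042), was kept in 1 of 8 fits that left out 1 library, the one without that OPC library. Whether the other annotation gave these values was not tested.

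**Figure D3:**
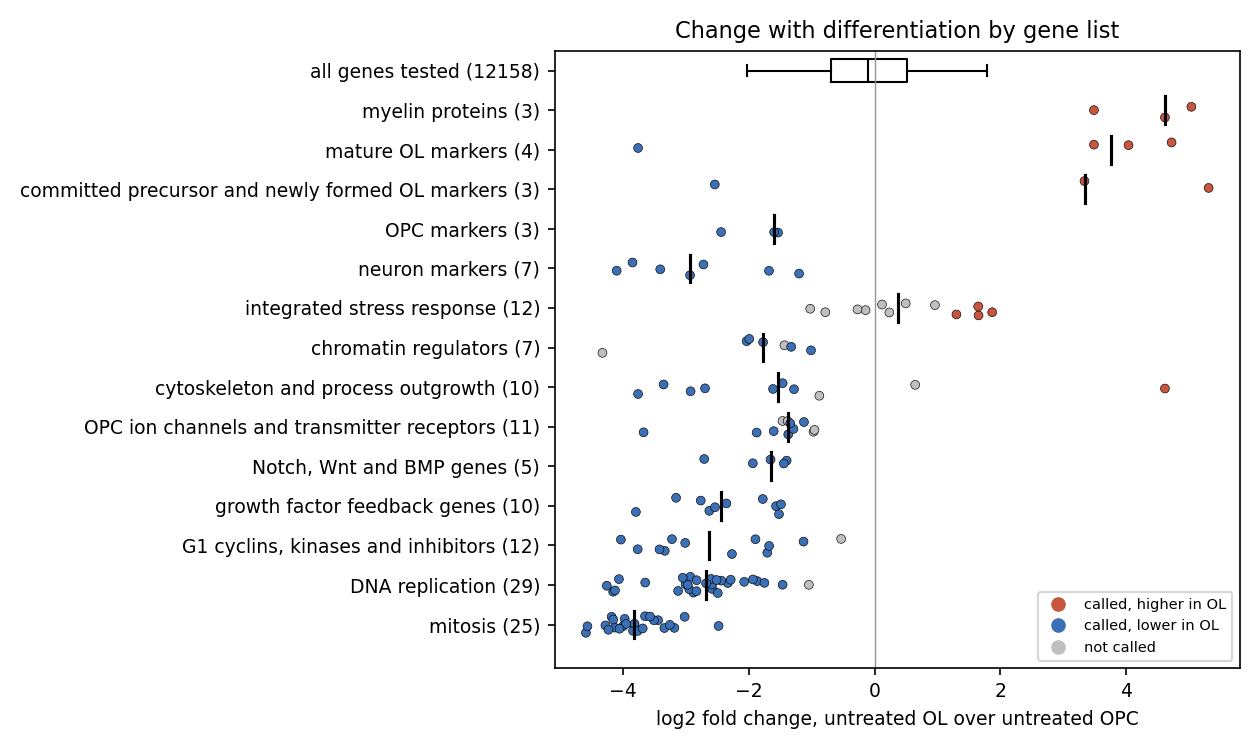
Log2 fold changes (OL over OPC, horizontal axis) of the measured members of 14 gene lists, with the number measured in brackets, coloured by the call, and a black bar at each median; the top box shows all 12158 genes tested, from the lower to the upper quartile with whiskers from the 5th to the 95th percentile. Mitosis and replication genes lie left of 0 with medians of -3.82 and -2.68, myelin proteins lie right of 0 with a median of 4.61, and stress response genes lie on both sides.

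Genes that open the cell cycle fell as well. Ccnd1, the cyclin D1 through which growth factors start the cycle, had 1715, 2062, 1383 and 2092 CPM in OPCs and 248, 154, 89.4 and 227 CPM in OLs, a change of -3.34 ± 0.34 (edgeR, adjusted p = 0.00011). The highest OL value was thus far below the lowest OPC value. Cdk6, a partner kinase of cyclin D, changed by -3.22 ± 0.47, Ccne1, the cyclin E1 of S phase entry, by -1.71 ± 0.29, E2f1 by -2.27 ± 0.51 and E2f7, a repressor among the E2F factors, by -4.03 ± 0.30. Of 24 genes in this list 12 were measured and 11 fell (median -2.64), against 13.2% lower among all genes tested. All but Cdkn1a were named by their lower level in DMSO-treated OLs, and of 1827 genes named that way 1343 fell. Without replicate 3 the calls were 10.

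Among the listed inhibitors of cyclin-dependent kinases, only Cdkn1a and Cdkn2b could be named. Cdkn1a, which encodes p21, had 230, 405, 300 and 468 CPM in OPCs and 154, 317, 294 and 205 CPM in OLs. The stages overlapped, and its change of -0.53 ± 0.29 was not called (edgeR, adjusted p = 0.18). With ERCC scaling it was called lower, with a change of -1.49. Cdkn2b, which encodes p15, fell, with 22.5 to 53.2 CPM in OPCs and 8.87 to 13.5 CPM in OLs (-1.68 ± 0.30). It was named by its lower level in DMSO-treated OLs, so its direction is no independent evidence.

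Feedback genes of growth factor signalling were lower in OLs. Spry4, an inhibitor that receptor tyrosine kinases induce against themselves, had 204, 165, 218 and 214 CPM in OPCs and 21.1, 10.8, 10.1 and 15.5 CPM in OLs. The change was -3.79 ± 0.28 (edgeR, adjusted p = 2.7e-05), with little spread among OPC libraries. Dusp6, a phosphatase of ERK, changed by -2.76 ± 0.44, Etv5, a transcription factor downstream of ERK, by -1.78 ± 0.34, and the immediate early gene Egr1 by -2.54 ± 0.37. In all, 10 of 16 listed genes were measured and 10 fell (median -2.45), against 13.2% lower among all genes tested. All 10 were named by their lower level in DMSO-treated OLs, and of 1827 genes named that way 1343 fell. The medians of the list within litters lay between -2.15 and -2.52.

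Transcription factors and signals of the precursor state fell in the part that could be named. Sox9, a factor of glial specification, had 304, 260, 207 and 255 CPM in OPCs and 94.1, 96.8, 111 and 105 CPM in OLs, a change of -1.34 ± 0.16 (edgeR, adjusted p = 0.00032). The OL values lay within a narrow band under the OPC values. Sox11, a factor of immature neural cells, changed by -2.31 ± 0.29. Of 22 genes of Notch, Wnt and BMP signalling 5 were measured and 5 fell (median -1.65), among them Jag1, a Notch ligand (-1.94 ± 0.35), Lef1, a nuclear partner of Wnt signalling (-2.71 ± 0.43), and Lgr5, a receptor that amplifies Wnt signals (-1.44 ± 0.30). Of 20 lineage transcription factors and 21 inhibitors of differentiation, 2 each were measured and all fell. Of all genes tested 13.2% were lower. Of genes named by their lower level in DMSO-treated OLs, as the members of these lists were, 1343 of 1827 fell.

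Ion channels and transmitter receptors, through which OPCs sense neuronal activity, fell unevenly. Of 26 listed genes 11 were measured and 7 were called lower (median -1.37), and without replicate 3 this became 6 with a median of -1.04. Of all genes tested 13.2% were lower. Of genes named by their lower level in DMSO-treated OLs, as these 11 were, 1343 of 1827 were called lower, a share no smaller. Chrm3, a muscarinic acetylcholine receptor, had 41.0, 19.9, 40.9 and 43.2 CPM in OPCs and 3.64, 1.13, 1.48 and 5.01 CPM in OLs, a change of -3.67 ± 0.50 (edgeR, adjusted p = 0.00058). Gria1, an AMPA receptor subunit, changed by -1.60 ± 0.33 and kept 8.58 to 14.7 CPM in OLs. Within litters, the median of the 11 genes changed by -0.94, -1.51, -2.30 and -0.51 in replicates 1 to 4.

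The cytoskeleton shifted in both directions. Vim, the intermediate filament of immature glia, had 1694, 2691, 2664 and 2482 CPM in OPCs and 331, 391, 327 and 422 CPM in OLs, a change of -2.70 ± 0.21 (edgeR, adjusted p = 3.5e-05). Stmn1, which destabilizes microtubules, changed by -2.93 ± 0.24, whereas Tppp, which stabilizes them, rose as given above. Nes, the intermediate filament of neural progenitors, changed by -3.35 ± 0.71, with 1021 CPM in the OPC library of replicate 3 against 179 to 198 CPM in the other OPC libraries and 22.4 to 76.7 CPM in OLs. Of 25 genes 10 were measured, 1 rose and 7 fell (median -1.54), with 7 called in all without replicate 3. Of all genes tested 11.4% were higher and 13.2% lower. Most members were named by their lower level in DMSO-treated OLs, and of 1827 genes named that way 1343 fell. Arpc1b, a subunit of the actin-nucleating Arp2/3 complex, was at 118 to 157 CPM in OPCs and 136 to 256 CPM in OLs, with overlap, and its 0.64 ± 0.21 did not pass the fold threshold and turned to -0.35 with ERCC scaling.

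Regulators of chromatin also fell in part. H2afz, a histone variant, had 501 to 745 CPM in OPCs and 138 to 170 CPM in OLs (-1.99 ± 0.17), Dnmt1, the maintenance DNA methyltransferase, changed by -1.77 ± 0.25, and Ezh2, the methyltransferase of Polycomb complex 2, by -2.03 ± 0.32. In these 3 genes the stages did not overlap. Of 17 genes 7 were measured and 5 fell (median -1.77), with 4 called without replicate 3. Of all genes tested 13.2% were lower. Of genes named by their lower level in DMSO-treated OLs, as these 7 were, 1343 of 1827 fell, a share no smaller.

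The integrated stress response, in which blocked translation initiation raises the factor ATF4 and its targets, moved little as a list. Of 14 genes 12 were measured, and 4 rose and 0 fell (median 0.36), against 11.4% higher among all genes tested. All 12 were named through the dolutegravir table, and of the 95 tested genes named only through it 37 rose. Atf4 itself had 155, 180, 146 and 127 CPM in OPCs and 151, 139, 172 and 253 CPM in OLs, and its 0.23 ± 0.22 was not called (edgeR, adjusted p = 0.43). It was -0.56 with ERCC scaling, -0.0274 with library totals and -0.0674 without replicate 4. Atf3, a factor induced by stress, rose from 0.363 to 1.40 CPM to 2.08 to 4.13 CPM (1.87 ± 0.44). It was called whichever single library was left out, but not without both libraries of replicate 1. With ERCC scaling none of the 4 rises was called, and the 2 genes of the list called there, Cebpb and Gdf15, were lower.

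The other calls of this list were lost in several fits that left out a library. Atf5, a factor related to ATF4, rose by 1.65 ± 0.51, and its OPC values ran from 15.1 CPM in replicate 3 to 110 CPM in replicate 4. Its call was kept in 4 of 8 fits and was lost without the OPC library of replicate 1 or 2 or the OL library of replicate 2 or 4, with changes of 1.33 to 2.04 over the 8 fits. Chac1, which degrades glutathione, rose by 1.30 ± 0.43 with overlapping stages. Its OL values were 9.96, 27.2, 32.9 and 13.9 CPM, and it was kept in 3 of 8 fits, those without the OPC library of replicate 4 or the OL library of replicate 1 or 4. Stc2, a secreted glycoprotein, rose by 1.65 ± 0.53, also with overlapping stages, and was kept in 3 of 8 fits, those without the OPC library of replicate 1 or the OL library of replicate 1 or 2. Without replicate 3, 2 of the 12 genes were called and the median was 0.16.

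Metabolism could be followed in few genes. Pfkl, the liver type of the enzyme that commits sugar to glycolysis, had 78.0, 91.1, 46.0 and 89.8 CPM in OPCs and 187, 369, 299 and 139 CPM in OLs (1.71 ± 0.34). Gpd1, which makes glycerol 3-phosphate from a glycolytic intermediate, had 4.46 to 8.75 CPM in OPCs and 25.1 to 46.8 CPM in OLs (2.46 ± 0.29). Both were apart in all litters, and they were the 2 measured of 23 genes of glycolysis and lactate. Of all genes tested 11.4% were higher, and of the 95 tested genes named only through the dolutegravir table, as these 2 were, 37 rose. With ERCC scaling the change of Pfkl was 0.70 and was not called. Lpl, which frees fatty acids from lipoproteins, was the 1 measured gene of 15 in sterol regulation and transport and fell by 1.77 ± 0.28 on the log2 scale. Of 12 genes of iron handling and of 19 of axon contact, 1 each was measured and fell, but the iron gene was not called without replicate 3 or with the litter as a block. Lpl, the iron gene and the axon contact gene were all named by their lower level in DMSO-treated OLs. Of 1827 genes named that way 1343 fell, and of all genes tested 13.2% were lower.

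Markers of other cell types could be read only in the part that was named, so their direction is no independent evidence. Of 12 neuron markers 7 were measured and 7 fell (median -2.93), against 13.2% lower among all genes tested. All 7 were named by their lower level in DMSO-treated OLs, and of 1827 genes named that way 1343 fell. Their summed level was 135, 78.4, 104 and 176 CPM in OPCs of replicates 1 to 4 and 25.9, 14.0, 14.0 and 20.2 CPM in OLs. Gad1, which makes GABA, had 22.9, 14.8, 29.8 and 50.7 CPM in OPCs and 2.98, 0.954, 0.493 and 2.39 CPM in OLs, a change of -4.10 ± 0.60. Snap25, a protein of synaptic vesicle fusion, changed by -3.85 ± 0.46, Gad2 by -2.93 ± 0.54, Slc32a1, the vesicular GABA transporter, by -3.41 ± 0.68, and Stmn2, a protein of growing neurites, by -2.72 ± 0.36. Nrgn and Cbln4, named among the largest falls, are also genes of neurons.

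Measured genes of vessel walls and connective tissue fell too, from low or moderate levels. These genes, Cd68 and Egr2 were all named by their lower level in DMSO-treated OLs. Acta2, the smooth muscle actin of mural cells, had 75.8, 7.28, 17.5 and 57.3 CPM in OPCs and 0.281 to 0.945 CPM in OLs, so that OPC cultures of different litters differed by over 10-fold. Rgs5, a marker of pericytes, changed by -3.93 ± 0.92 and was at 0 in the OL library of replicate 2. These were the 2 measured of 10 endothelial and mural markers, with a summed 8.33 to 76.5 CPM in OPCs and 0.633 to 1.11 CPM in OLs. Fn1, fibronectin, the 1 measured of 6 fibroblast markers, had 33.7 to 81.2 CPM in OPCs and 13.2 to 17.8 CPM in OLs (-1.95 ± 0.30). Cd68, the 1 measured of 12 microglia markers, was at 0.980 to 2.60 CPM in OPCs and 0.0868 to 0.509 CPM in OLs (-2.43 ± 0.53). Of 6 Schwann cell markers 2 were measured and 1, Egr2, fell by 2.40 ± 0.43 on the log2 scale, with summed levels that overlapped between stages. None of 10 astrocyte markers has a symbol in the tables. The part of such cells in the changes above, those of Fbn2, S100a10, Vim, Nes and the ion channels included, was not tested.

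Litters differed in how broad the change was. Within replicates 1 to 4, 29.3%, 31.0%, 54.9% and 24.9% of genes differed by over 2-fold between the untreated OPC and OL library, and 35.2%, 31.8%, 52.7% and 26.6% did so between the DMSO libraries of the same litters. Replicate 3 was thus the widest with either treatment, although its DMSO libraries were counted with the common annotation. The change of each gene in an untreated pair correlated across genes more with the DMSO pair of the same litter (r = 0.922, 0.871, 0.922 and 0.886) than with the DMSO pair of any other litter (0.633 to 0.869), in 4 of 4 litters. Genes are not independent replicates, and same-numbered pairs share their litter. Among genes of equal exonic length in both annotations the order was the same, with 0.906, 0.867, 0.907 and 0.885 for the same litter.

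The change of long transcripts varied between litters. Among the 3154 genes of longest exonic length (from 3748 bases), the median change was -0.26, -0.08, -0.70 and 0.05 in untreated replicates 1 to 4 and -0.43, -0.26, -0.83 and -0.15 in the DMSO pairs. Among the 3156 shortest (up to 1601 bases) it was 0.08, -0.10, 0.07 and -0.08 and, with DMSO, 0.17, -0.05, 0.24 and -0.02. Replicate 3 had the largest fall of long transcripts with either treatment. Pdgfra changed by -1.26, -2.41, -2.11 and -0.40 within untreated replicates 1 to 4, and by -1.44, -1.89, -2.49 and -1.06 within the DMSO pairs, with the smallest change in replicate 4 both times. Mbp changed by 4.57, 4.86, 6.12 and 4.74 and, with DMSO, by 4.96, 5.21, 5.70 and 4.93. Replication genes varied little, with medians from -2.38 to -2.84 untreated and -2.22 to -2.64 with DMSO.

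**Figure D4:**
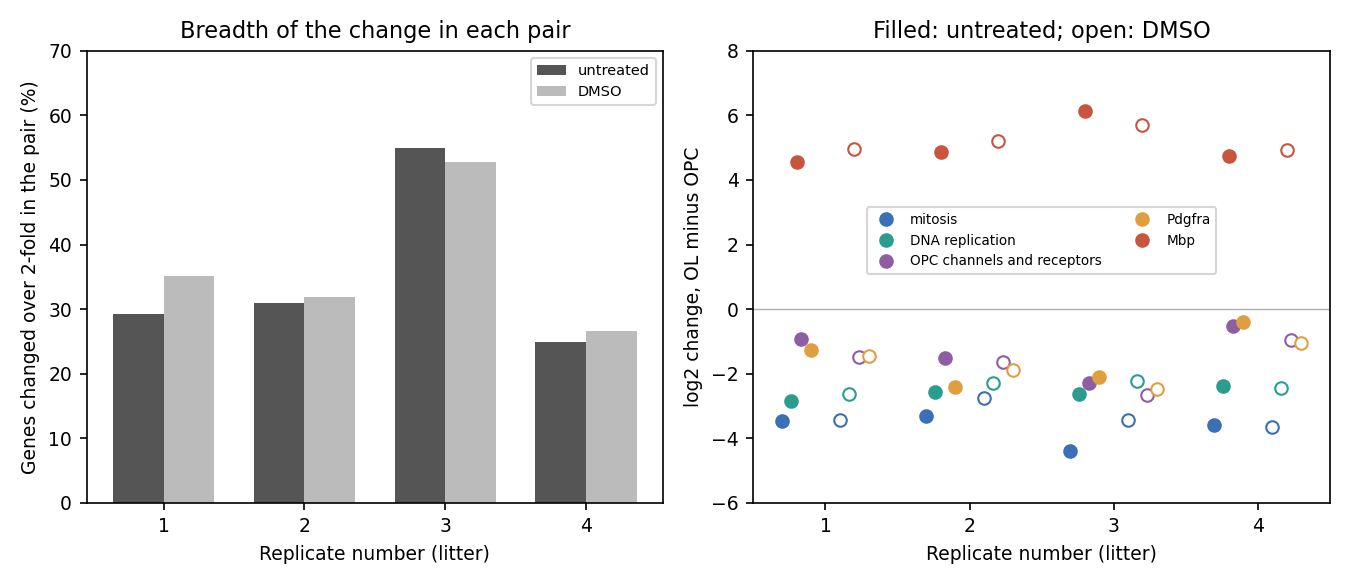
Left, the share of genes that changed over 2-fold between the OPC and the OL library of each litter, untreated (dark) and with DMSO (light); right, the log2 change of Mbp and Pdgfra and the median log2 change of 3 gene lists within each litter, untreated (filled) and with DMSO (open). Replicate 3 has the tallest bars, 54.9% and 52.7%, and Pdgfra and the channel list change least in replicate 4.

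The DMSO libraries also gave a second measurement of differentiation from the same litters and separate libraries. OPCs and OLs with DMSO at 0.04% were cultured on the same schedule. Of 2949 genes called in untreated cells and tested in both, 2948 changed in the same direction with DMSO and 2756 (93.5%) were called there too. In turn, 71% of the 3880 genes called with DMSO were called in untreated cells. Across 11988 genes the log2 fold changes had r = 0.971, as a description of genes that share litters. With replicate 3 left out of the untreated fit but kept in the DMSO fit, r was 0.922. For example, Mbp changed by 5.25 ± 0.39 with DMSO, Pnlip by 6.13 ± 0.42, Pdgfra by -1.72 ± 0.31 and Cdc20 by -2.31 ± 0.27, beside 5.03 ± 0.45, 6.23 ± 0.38, -1.54 ± 0.32 and -3.02 ± 0.34 in untreated cells.

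Whether differentiation differed between untreated and DMSO-treated cells was tested as an interaction of stage and treatment over these 16 libraries. None of 12613 genes (0%) passed an adjusted p of 0.05 in edgeR, with 38 genes at an unadjusted p under 0.05. DESeq2's Wald test also called 0 genes, with 64 under 0.05. With the litter as a block within each stage, 472 genes were under an unadjusted p of 0.05 and again 0 were called. The median absolute difference of the 2 log2 fold changes was 0.161, below the median standard error of the interaction, 0.386, so differences of this size were not detectable here and the test does not show that the responses were equal.

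**Figure D5:**
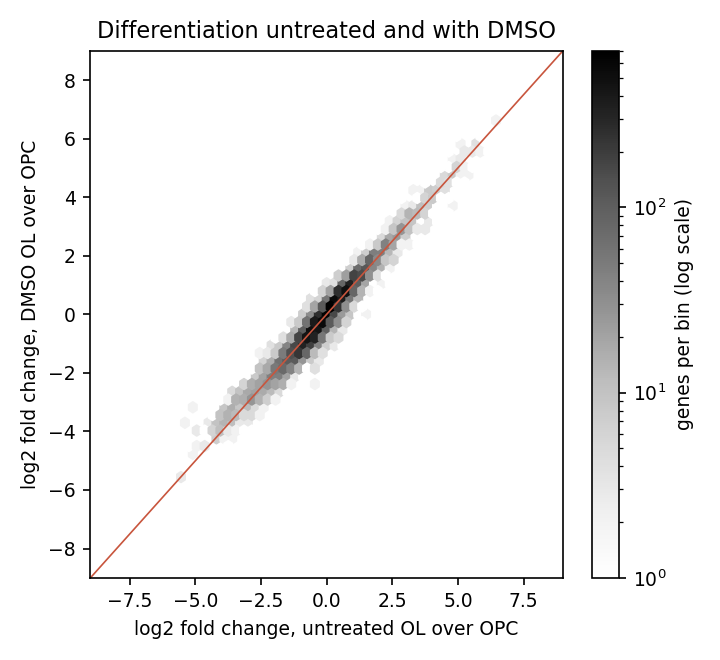
Log2 fold change with differentiation in untreated cells (horizontal) against that in DMSO-treated cells (vertical) for 11988 genes tested in both, shaded by the number of genes per bin (log scale), with a red line of equality. Most genes lie along the line, and the median absolute difference is 0.161.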

How the data were processed

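Counts came from poly(A) RNA of 8 untreated libraries (4 OPC, 4 OL) and, for the comparison of treatments, 8 DMSO libraries. Libraries had been prepared with the NEBNext Ultra II kit. The submitters' processing notes list bcl2fastq 2.20, STAR 2.5.2b, Subread 1.5.2 with featureCounts and the build Rnor_6.0. The authors deposited whole-number counts of uniquely mapped reads per gene, without normalization and with replicates kept apart, beside counts of 92 ERCC transcripts. Whether counting used strand is not given in the sources used here, so overlapping and antisense genes cannot be told apart, and reads of near-identical genes are uncertain. The build of the annotation used for replicate 3 is likewise not given, and positions are those of the other 22 files.

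Here, the 21651 identifiers in all files were kept and ERCC transcripts left out. In R 4.3.3, edgeR 4.0.16 with limma 3.58.1 was used: filterByExpr, TMM scaling and a quasi-likelihood test of OL against OPC without covariates, as in the study's design of group pairs. Benjamini-Hochberg adjustment covered all genes that passed the filter, and calls required an adjusted p under 0.05 with a log2 fold change over 1 either way. CPM and principal components used these scaled libraries, the latter with a prior count of 2. Deviations of replicates were taken on log2(CPM + 0.5) for genes with a mean over 1 CPM. The interaction of stage and treatment used all 16 libraries. Single values were compared with two-sided exact permutation tests. Tests were checked on simulated counts that held no differences between litters or annotations, so this check does not cover those of replicate 3.

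Libraries of equal number share a code in their library names and were taken as 1 litter. Deviations of same-numbered OPC and OL libraries from the stage means correlated with r = 0.543, 0.27, 0.677 and 0.297 for replicates 1 to 4. For replicates 2 and 4 a library of another number correlated more (0.429 and 0.392). The replicate number was also used as a block. Other alternatives were DESeq2 1.42.0, its size factors, library totals, ERCC scaling, other filters on low counts, genes with exonic lengths within 10%, and leaving out each library or litter.

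Genes named in the text are members of the gene lists and the 10 largest rises and falls among called, named genes. For these rises and falls, log2 CPM had to average above 0, all litters had to move one way, and the call had to hold without replicate 3. Galnt9, the genes without a symbol and gene families were chosen after their values were seen. The members and lists were chosen with earlier results of these data known. Promoter sequences are from RefSeq (GRCr8). At 13241279 to 18499994 gene counts a library, counting error limits weakly expressed genes most.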

Additional observations from a re-analysis of the deposited data

Results flagged for a closer look

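In each untreated stage, the 4 CPM values of the 88 genes named above, the 4 ERCC and mitochondrial shares and the 4 scores on the first 2 principal components were screened for a library far from the other 3, by the ratio of its gap to the range (Dixon's test at the 95% level). Of 184 groups of 4 values, 21 were marked (11.4%), while chance marks about 1 in 20, or 9.2. Replicate 3 held 10 of the 21. Its scores on the first component were -76.5 in the OPC library and -76.2 in the OL library, below the other 3 of each stage. In its OPC library the genes were Gjc3 at 7.25, Jag1 at 30.2, Nes at 1021, Tmem151a at 2.96 and Xylt1 at 501 CPM, all above the other 3 OPC libraries. In its OL library they were Gins4 at 54.1, Nes at 76.7 and Tmem151a at 130.0 CPM, again above the other OL libraries. Nes and Tmem151a were thus high in replicate 3 at both stages.

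The other 11 were spread over 3 litters. In OL libraries, Aurka at 20.7, Slc32a1 at 5.02 and Egr1 at 15.2 CPM were high in replicate 1, Xirp1 at 5.99 CPM was high in replicate 2, Il1r1 at 0.349 and Gria1 at 14.7 CPM were high in replicate 4, and Kif19 at 84.9 and Mcm2 at 52.0 CPM were low in replicate 4. In OPC libraries, Epb41l3 at 59.6 and Pcna at 276 CPM were high in replicate 1, and Chrm3 at 19.9 CPM was low in replicate 2. Causes of these values were not tested.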

How the results depend on the processing

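Of 84 called genes named above, 77 kept their call and direction under all alternatives that gave them an adjusted p, and none of the 84 changed direction. DESeq2 gave no adjusted p for Gins4, Nes and Tmem151a. The count of 2996 calls was 3355 with DESeq2's Wald test, 3001 with DESeq2 size factors, 3107 of 17024 genes without a filter, 2908 with a stricter one and 4440 without a minimum fold change. With the litter as a replicate block it was 3384 (1632 higher, 1752 lower), and no call of a named gene was lost. Gins4 alone was gained by the block. Genes with exonic lengths within 10% gave 1332 calls of 5008 tested, as fewer genes were tested. Leaving out 1 library gave 2599 to 3223 calls, and leaving out 1 litter 2303 to 3001. ERCC scaling ended the calls of 6 named genes, those of Atf3, Atf5, Chac1, Stc2, Pfkl and Tmem151a, gained those of Cdkn1a (-1.49) and Gins4 (-2.31) and reversed the uncalled Arpc1b (-0.35) and Atf4 (-0.56). Atf4 was also reversed with library totals (-0.0274) and without replicate 4 (-0.0674), and it ranged up to 0.43 when other replicates were left out. The causes were not tested. The interaction gave 0 calls under every alternative, with 31 to 535 genes under an unadjusted p of 0.05 when 1 library was left out and 81 with the replicate block. The ERCC difference between stages was 0.683 to 1.66 percentage points when 1 library was left out, and p was 0.375 when signs were flipped within litters. The share of mitochondrial counts differed by -0.822 percentage points (exact permutation test, p = 0.314).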

Other observations

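Gene families were also read by their symbols, chosen after their values were seen, so the counts are descriptions only. Of 13 kinesins tested, 11 fell and 1, Kif19, rose, with a median log2 fold change of -3.58. All 15 tested centromere proteins (Cenp), 8 of 9 condensin and cohesin genes and all 6 tested Fanconi genes, which serve repair of crosslinked DNA, fell, with medians of -3.77, -2.79 and -2.83. Outside the cell cycle, all 7 tested collagens (median -2.05), all 8 semaphorins and plexins (-1.82), which guide growing processes, and 12 of 18 potassium channels (-1.73) fell. Of 12 metalloproteases 9 fell and Adamts4 alone rose. Of 36 solute carriers 25 fell and 0 rose. Nearly all of these symbols come from the table of genes lower in DMSO-treated OLs, so the direction of the families is no independent evidence. Of all genes tested 13.2% were lower, but of the 1827 genes named by their lower level in DMSO-treated OLs, 1343 fell. Among all 1922 tested genes with a symbol, 1346 fell. The shares of potassium channels and of solute carriers that fell were no larger, so these counts do not set them apart from other named genes. No family was tested against these shares.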
